A study of Xenopus tropicalis with 24 samples.

Results

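The genes described here are inhibitors of cyclin-dependent kinases (CDKs), genes of the p53 pathway and the retinoblastoma gene in the amputated tail of *Xenopus tropicalis* tadpoles. They were taken by name and by no cut on a measured value, but with earlier results of these data known. The 9 symbols are *cdkn1a*, *cdkn1b*, *cdkn1c*, *cdkn2b*, *cdkn2d*, *mdm2*, *gadd45a*, *gadd45g* and *rb1*. Of these, 8 are among the 26531 genes of the count table, and *cdkn1c* was not analysed here. RNA-seq was done on whole tail tissue, the regrown part plus a short stretch of stump, collected at 0, 6 and 24 h post amputation (hpa). The 4 groups were TR double knockout (TRDKO) tadpoles at stage 61 (TRDKO61), wild-type tadpoles at stage 61 (WT61), TRDKO tadpoles at stage 56 (TRDKO56) and wild-type tadpoles at stage 56 (WT56). TRDKO tadpoles lack both thyroid hormone receptors (TRs), TRα and TRβ, in every tissue and from the start of development, so their stage 61 tail differs from that of WT61 in its whole history of metamorphosis. Stage 56 is premetamorphic and stage 61 is the metamorphic climax. All tadpoles were amputated, those at 0 hpa included. The study treats WT61 as unable to regenerate the tail and the other 3 groups as able to, and asks which gene programs go with this.

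A CDK bound to its cyclin drives the cell cycle, and 2 families of small proteins hold it back. Proteins of the Cip/Kip family (*cdkn1a*, *cdkn1b*) bind complexes of several cyclins and CDKs, and those of the INK4 family (*cdkn2b*, *cdkn2d*) bind CDK4 and CDK6. When these kinases are held back, the retinoblastoma protein stays bound to E2F factors and the genes of DNA synthesis stay low. In mammals p53 switches on *cdkn1a*, *mdm2* and *gadd45a* after DNA damage, and lasting expression of CDK inhibitors is known from senescent cells. The tadpole tail grows at premetamorphic stages and is resorbed at the climax, when thyroid hormone is high.

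Each of the 12 conditions had 2 libraries, with 3956148 to 20731438 counts per library, and the smallest was replicate 2 of WT56 at 0 hpa. The study's methods call the libraries biological replicates of each RNA sample, and name several tadpoles per condition. How these were divided between the libraries is not stated in the sources used here, so the p-values measure the spread between these libraries, which may be technical. Levels are CPM, the counts of a gene brought to a common library total with TMM factors, and a log2 fold change (log2 FC) is positive where the first-named group is higher. A gene was called when the FDR of edgeR's two-sided quasi-likelihood test over all genes was under 0.05. The libraries of both genotypes held transcripts of both TR genes. At 0 hpa *thrb* averaged 102 ± 13.3 CPM in TRDKO61 and 213 ± 4.96 in WT61, against 24.8 ± 5.75 in TRDKO56 and 10.7 ± 2.42 in WT56 (SD, n = 2). *thra* averaged 9.90 ± 0.857, 13.5 ± 0.448, 6.67 ± 1.01 and 6.00 ± 0.613 CPM in the same order, and a transcript count does not show whether a working receptor was made.

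Markers of the cell types of a tail were counted in every library. The summed level of 11 skeletal muscle markers ran from 3860 to 29600 CPM, that of 13 leukocyte markers from 598 to 2090, that of 9 epidermal markers from 3300 to 7330, that of 11 neural markers from 145 to 399, that of 10 notochord and cartilage markers from 64.3 to 1690 and that of 10 fibroblast markers from 4520 to 21100. No marker was at 0 in all libraries, and *myh4*, *pvalb*, *lyz*, *krt12.4*, *matn1* and *thy1* were at 0 in some. In a bulk sample fewer cells of a type and less RNA per cell cannot be told apart.

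At stage 61 WT tails held more *cdkn1a*, *cdkn2d* and *cdkn2b* RNA than at stage 56 at 0, 6 and 24 hpa. TRDKO61 tails stayed below WT61 in *cdkn1a* and *cdkn2d* at all 3 times, and did not pass the test against WT61 in *cdkn2b* at any. *cdkn2d* fell within 6 h of amputation in all 4 groups. *rb1* rose between 6 and 24 hpa in both stage 56 groups, and was higher at 24 than at 0 hpa in all 4 groups. The difference between stages in its change from 6 to 24 hpa did not pass in edgeR's fits to 8 libraries in either genotype. DESeq2 and some other edgeR fits called it in both. *mdm2* was higher in TRDKO61 than in WT61 at 0 and 24 hpa. The coordinates below are those of the count table, whose starts match the assembly UCB_Xtro_10.0.

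**Figure D1:**
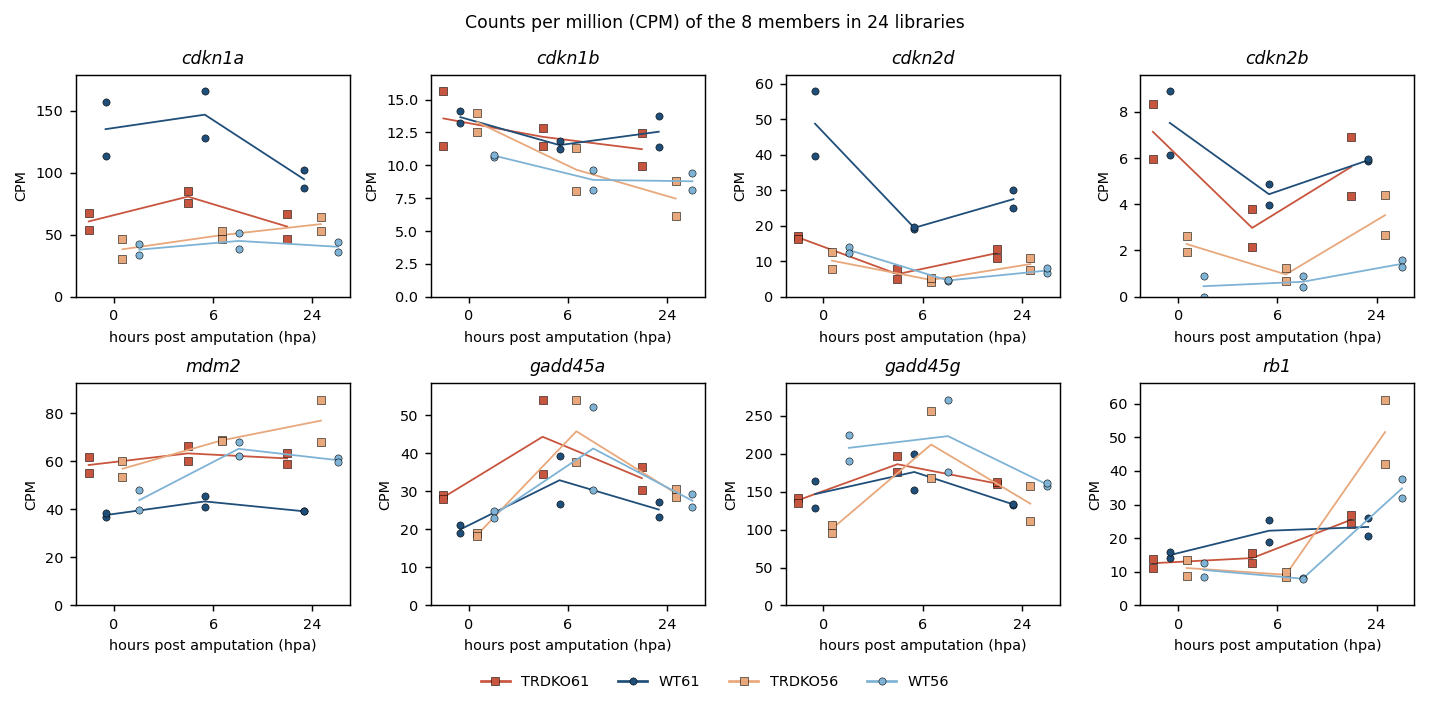
Level of the 8 genes in CPM (linear axis from 0) against time after amputation (0, 6 and 24 hpa, evenly spaced) for TRDKO61, WT61, TRDKO56 and WT56. Each point is a library and each line joins the means of 2 libraries. For *cdkn1a* and *cdkn2d* every WT61 library lies above every library of the other 3 groups at the same time, and for *rb1* the TRDKO56 and WT56 libraries are highest at 24 hpa.

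Per kilobase of annotated transcript the members differed widely in level. Averaged over the 12 conditions, *gadd45g* was highest with 132.5 CPM per kilobase, followed by *cdkn1a* with 29.6, *gadd45a* with 24.5 and *mdm2* with 17.7. *cdkn2d* (3.66), *rb1* (3.53), *cdkn1b* (2.53) and *cdkn2b* (2.39) lay within a narrow range. Across the 12 conditions *cdkn2b* had the widest span, 16.6-fold between the highest and the lowest mean, of which the lowest rests on 9 and 0 counts in its libraries and does not fix the fold. It was followed by *cdkn2d* with 10.7-fold and *rb1* with 6.49-fold. *cdkn1a* spanned 3.87-fold, *gadd45a* 2.47-fold, *gadd45g* 2.21-fold, *mdm2* 2.05-fold and *cdkn1b* 1.83-fold. When the 12 conditions of a gene were ordered by mean, libraries of neighbouring conditions overlapped in 7 of 11 steps for *cdkn2d*, *mdm2* and *rb1*, and in all 11 for *cdkn1b*.

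Between stages, the number of members that passed the test at 0 hpa was 3 of 8 in TRDKO tails, where 21.9% of all genes passed, and 4 of 8 in WT tails, where 26.9% did. In TRDKO tails *cdkn2b*, *cdkn2d* and *gadd45a* were higher at stage 61. In WT tails *cdkn1a*, *cdkn2b* and *cdkn2d* were higher and *gadd45g* was lower. At 6 hpa, 0 of 8 passed edgeR's test in TRDKO tails (6.7% of all genes), with 3 at an unadjusted p under 0.05 and 1, *cdkn1a*, by DESeq2. Of all 15993 genes tested there, 3849 had an unadjusted p under 0.05. In WT tails 5 of 8 passed (22.5%), namely *cdkn1a*, *cdkn2b*, *cdkn2d* and *rb1* upward and *mdm2* downward. At 24 hpa, 1 of 8 passed in TRDKO tails (17.4%), *rb1* downward, and 4 of 8 in WT tails (29%), with *cdkn1a*, *cdkn2b* and *cdkn2d* upward and *mdm2* downward. The median log2 FC of the 8 members was 0.53 at 0 hpa, 0.38 at 6 hpa and 0.25 at 24 hpa in TRDKO tails, against medians over all genes of 0.02, 0.02 and 0.01. In WT tails it was 0.38 at 0 hpa, 0.93 at 6 hpa and 0.19 at 24 hpa, against medians over all genes of -0.01, -0.01 and -0.01.

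Between genotypes at stage 61, 4 of 8 members passed at 0 hpa (29.9% of all genes), 2 at 6 hpa (9.89%) and 3 at 24 hpa (15.5%). *cdkn1a* and *cdkn2d* were lower in TRDKO61 at each time, *mdm2* was higher at 0 and 24 hpa and *gadd45a* was higher at 0 hpa. At stage 56 only *gadd45g* passed, at 0 hpa (1 of 8, against 5.93% of all genes), and it was lower in TRDKO56. At 6 and 24 hpa, 0 of 8 passed edgeR's test at stage 56 (0.206% and 2.37% of all genes), with 0 and 4 members at an unadjusted p under 0.05 and 0 by DESeq2 at either time. The same limit was met by 1507 of 15993 genes at 6 hpa and 3023 of 16271 at 24 hpa. The difference between the stage effects of the genotypes passed for 2 members at 0 hpa (5.55%), 0 at 6 hpa (0.281%, with 3 at an unadjusted p under 0.05 and 1, *cdkn2d*, by DESeq2) and 2 at 24 hpa (4.34%). For this difference at 6 hpa, 2125 of 15993 genes had an unadjusted p under 0.05. Of these stage and genotype comparisons, only that of stages in WT tails at 6 hpa had over 2 more calls than the share of all genes would give for 8 genes. A comparison with 2 calls or fewer cannot reach that limit, so it does not show that the members passed as often as all genes.

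**Figure D2:**
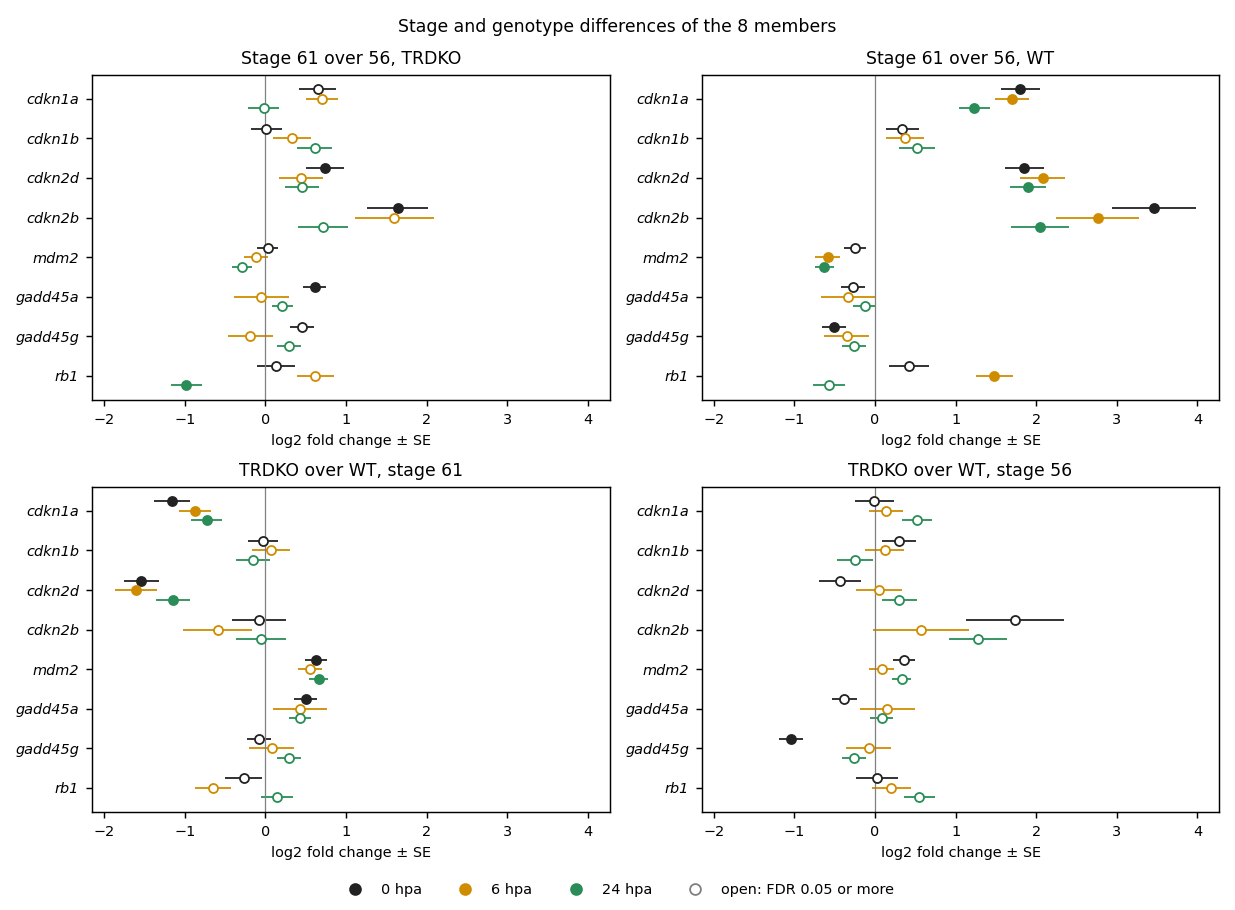
Log2 fold change with its standard error for the 8 genes at 0, 6 and 24 hpa, for stage 61 over 56 in TRDKO and in WT tails and for TRDKO over WT at stages 61 and 56. Filled points passed an FDR of 0.05. *cdkn1a* and *cdkn2d* are positive between stages in WT and negative between genotypes at stage 61 at all 3 times, for example 1.80 and -1.16 for *cdkn1a* at 0 hpa.

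*cdkn1a* (chromosome 2, 54652721 to 54677604, minus strand) encodes p21, the Cip/Kip inhibitor best known as a target of p53. At 0 hpa it had 54.0 and 67.5 CPM in TRDKO61, 157 and 113.5 in WT61, 30.3 and 46.25 in TRDKO56, and 42.5 and 33.4 in WT56. At 6 hpa it had 85.7 and 75.9 CPM in TRDKO61, 128 and 166 in WT61, 46.7 and 52.8 in TRDKO56, and 38.6 and 51.4 in WT56. At 24 hpa it had 46.5 and 66.7 CPM in TRDKO61, 87.4 and 102 in WT61, 52.97 and 64.2 in TRDKO56, and 36.1 and 44.5 in WT56. The WT61 libraries were the highest at each time and overlapped with none of the other groups, while TRDKO56 and WT56 overlapped at 0 and 6 hpa. Between stages it was higher in WT61 than in WT56 by a log2 FC of 1.80 at 0 hpa (SE 0.24, FDR 0.000412), 1.7 at 6 hpa (SE 0.21, FDR 0.00198) and 1.23 at 24 hpa (SE 0.19, FDR 0.0027). In TRDKO tails the values were 0.65 (FDR 0.0717), 0.70 (FDR 0.0808) and -0.02 (FDR 0.964). DESeq2 and the fit without a filter on low counts called the first of these, and DESeq2, the fit to all 24 libraries and the fit with a replicate term called the second. TRDKO61 lay below WT61 by a log2 FC of -1.16 at 0 hpa (SE 0.22, FDR 0.00386), -0.87 at 6 hpa (SE 0.20, FDR 0.0325) and -0.73 at 24 hpa (SE 0.19, FDR 0.0378). At stage 56 the TRDKO over WT values were -0.01, 0.14 and 0.52 (FDR 0.991, 0.908 and 0.201). The stage effect in TRDKO minus that in WT was -1.15 at 0 hpa (FDR 0.0721), -1.01 at 6 hpa (FDR 0.185) and -1.25 at 24 hpa (SE 0.27, FDR 0.0447), and only the last passed. DESeq2 and the fit without a filter also called the one at 0 hpa.

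Over time the only call of *cdkn1a* was a fall in WT61 at 24 against 0 hpa, by a log2 FC of -0.54 (SE 0.17, FDR 0.0467). In WT61 at 24 against 6 hpa it gave -0.63 (FDR 0.143), with no overlap of libraries, and in TRDKO56 at 24 against 0 hpa 0.55 (FDR 0.0985), which a replicate term called. The call in WT61 was lost under 6 of 7 other fits, with values from -0.54 to -0.51, and without replicate 1 of WT61 at 0 hpa it was -0.28. It was also lost without either WT56 library at 0 hpa (-0.53 and -0.54) and without either WT61 library at 24 hpa (-0.42 and -0.66). Of the calls between TRDKO61 and WT61, those at 6 and 24 hpa were lost in the fits to only the 4 libraries compared. With a library left out, the call at 6 hpa was lost without either TRDKO56 library (-0.86 each), either TRDKO61 library (-0.97 and -0.80) or replicate 2 of WT61 (-0.70). The one at 24 hpa was lost without replicate 1 of TRDKO61 (-0.50), replicate 1 of WT56 (-0.72) or either WT61 library (-0.84 and -0.62). The stage by genotype call at 24 hpa was lost without either TRDKO56 library (-1.39 and -1.11), either WT56 library (-1.10 and -1.41) or either WT61 library (-1.36 and -1.14). The stage calls in WT and the genotype call at 0 hpa held with each library left out in turn.

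*cdkn2d* (chromosome 3, 138200171 to 138212616, minus strand) encodes p19, an INK4 inhibitor. At 0 hpa it had 17.2 and 16.2 CPM in TRDKO61, 58.0 and 39.6 in WT61, 12.5 and 7.81 in TRDKO56, and 13.97 and 12.37 in WT56. At 6 hpa it had 5.0 and 7.72 CPM in TRDKO61, 19.1 and 19.8 in WT61, 4.15 and 5.29 in TRDKO56, and 4.38 and 4.76 in WT56. At 24 hpa it had 13.5 and 10.99 CPM in TRDKO61, 29.95 and 25.1 in WT61, 10.9 and 7.54 in TRDKO56, and 6.69 and 8.07 in WT56. WT61 stood above the other groups at each time with no overlap, and within each group the 6 hpa libraries were below those at 0 hpa. It was higher in WT61 than in WT56 by a log2 FC of 1.85 at 0 hpa (SE 0.24, FDR 0.000214), 2.08 at 6 hpa (SE 0.28, FDR 0.00267) and 1.90 at 24 hpa (SE 0.22, FDR 0.000689). In TRDKO tails the stage values were 0.74 at 0 hpa (SE 0.24, FDR 0.0478), 0.44 at 6 hpa (FDR 0.376) and 0.45 at 24 hpa (FDR 0.181). TRDKO61 lay below WT61 by -1.54 (SE 0.22, FDR 0.000464), -1.6 (SE 0.26, FDR 0.0111) and -1.15 (SE 0.21, FDR 0.00944) on the log2 scale at 0, 6 and 24 hpa. The stage effect in TRDKO minus that in WT was -1.11 at 0 hpa (FDR 0.0833), -1.65 at 6 hpa (FDR 0.119) and -1.45 at 24 hpa (SE 0.30, FDR 0.0387). The value at 0 hpa passed with a replicate term and without a filter, and the one at 6 hpa with DESeq2 and with all 24 libraries.

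The *cdkn2d* call between stages in TRDKO tails at 0 hpa was lost under 4 of 7 other fits (0.69 to 0.76). With 1 library left out it was lost without replicate 2 of TRDKO56 (0.40), either TRDKO61 library (0.69 and 0.78) or either WT56 library (0.74 and 0.75). The genotype calls at stage 61 were lost without replicate 1 of TRDKO61 at 6 hpa (-1.35) and without replicate 1 of WT61 at 24 hpa (-1.01). The stage by genotype call at 24 hpa was lost with a replicate term, and without replicate 1 of TRDKO56 (-1.17), either WT56 library (-1.32 and -1.60) or either WT61 library (-1.31 and -1.58).

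*cdkn2d* was the only member to pass at 6 against 0 hpa in all 4 groups. At 6 against 0 hpa it fell by a log2 FC of -1.36 in TRDKO61 (SE 0.29, FDR 0.0134), -1.32 in WT61 (SE 0.19, FDR 0.00886), -1.10 in TRDKO56 (SE 0.31, FDR 0.0386) and -1.54 in WT56 (SE 0.24, FDR 0.00462). From 6 to 24 hpa the values were 0.94 (FDR 0.0961), 0.51 (FDR 0.152), 0.94 (FDR 0.0543) and 0.67 (SE 0.19, FDR 0.0345) in TRDKO61, WT61, TRDKO56 and WT56. Only the last passed, and which group passes turns on the fit. The fits with DESeq2, without a filter and to all 24 libraries called TRDKO56, the last of them also TRDKO61, and DESeq2 and the fit to all 24 libraries did not call WT56. At 24 against 0 hpa it was still lower in WT61 (-0.83, SE 0.18, FDR 0.00624) and WT56 (-0.88, SE 0.23, FDR 0.00749), with -0.44 in TRDKO61 (FDR 0.298) and -0.18 in TRDKO56 (FDR 0.639). The summed notochord and cartilage markers were also lower at 6 than at 0 hpa in each group, with 82.0 to 89.2 against 380 to 462 CPM in TRDKO61, 140 to 249 against 546 to 738 in WT61, 461 to 503 against 900 to 1120 in TRDKO56 and 811 to 876 against 1580 to 1690 in WT56. The summed fibroblast markers were lower as well, with 4520 to 6100 against 9440 to 11200 CPM in TRDKO61, 8480 to 9270 against 11000 to 11800 in WT61, 9940 to 12400 against 17900 to 19100 in TRDKO56 and 11900 to 14500 against 17100 to 21100 in WT56. Of 10 fibroblast markers tested, 4 passed as lower in TRDKO61 and 3 in TRDKO56, with 0 lower in WT61 and in WT56. Higher were 1 in TRDKO56 and 1 in WT56. Of 9 notochord and cartilage markers tested, 6 were lower in TRDKO61, 6 in WT61, 2 in TRDKO56 and 4 in WT56, with 0 higher. The shares of all genes that passed were 14.9%, 7.16%, 15.4% and 18.9% in TRDKO61, WT61, TRDKO56 and WT56. The part of either tissue in the fall was not tested.

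The fall of *cdkn2d* by 6 hpa was lost with only the 4 libraries compared in WT61, and under no other fit. With 1 library left out it was lost in TRDKO61 without replicate 1 at 0 hpa (-1.31), in WT61 without replicate 1 at 0 hpa (-1.05) and in WT56 without replicate 1 at 0 hpa (-1.44). In TRDKO56 it was lost without replicate 1 at 0 hpa (-0.73), either library at 6 hpa (-0.93 and -1.29) or either TRDKO61 library at 0 hpa (-1.10 and -1.08). The rise in WT56 from 6 to 24 hpa was lost under 4 of 7 other fits (0.66 to 0.70) and without any of its 4 libraries (0.65 and 0.75 without those at 6 hpa, 0.81 and 0.55 without those at 24 hpa). At 24 against 0 hpa the call was lost without replicate 1 at 0 hpa in WT61 (-0.54), and in WT56 without replicate 1 at 0 hpa (-0.77) or at 24 hpa (-0.72).

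*cdkn2b* (chromosome 1, 121217673 to 121223546, minus strand) encodes p15, the other INK4 inhibitor among the members, which in mammals responds to TGF-beta. It was the least abundant member, with 0 to 166 counts per library. At 0 hpa it had 5.94 and 8.33 CPM in TRDKO61, 8.90 and 6.14 in WT61, 2.61 and 1.95 in TRDKO56, and 0.905 and 0 in WT56. The value of 0 is that of the smallest library, in which 3 counts would be 0.928 CPM. At 6 hpa it had 3.79 and 2.16 CPM in TRDKO61, 3.99 and 4.88 in WT61, 0.691 and 1.24 in TRDKO56, and 0.398 and 0.893 in WT56. At 24 hpa it had 6.90 and 4.35 CPM in TRDKO61, 5.87 and 5.95 in WT61, 2.67 and 4.38 in TRDKO56, and 1.58 and 1.26 in WT56. Both stage 61 groups overlapped with each other at 0 and 24 hpa and lay above WT56 at each time. In WT tails it was higher at stage 61 by a log2 FC of 3.46 at 0 hpa (SE 0.52, FDR 0.000538), 2.76 at 6 hpa (SE 0.52, FDR 0.00849) and 2.05 at 24 hpa (SE 0.36, FDR 0.00365). In TRDKO tails it was higher by 1.64 at 0 hpa (SE 0.38, FDR 0.00968), with 1.6 at 6 hpa (FDR 0.0922) and 0.72 at 24 hpa (FDR 0.146). Between the genotypes no value of *cdkn2b* passed, although the one at stage 56 and 0 hpa did in the fit without a filter on low counts. TRDKO61 over WT61 was -0.08, -0.59 and -0.05 (FDR 0.878, 0.415 and 0.935), and TRDKO56 over WT56 was 1.74, 0.57 and 1.28 (FDR 0.12, 0.848 and 0.11) at 0, 6 and 24 hpa. The TRDKO56 libraries were above the WT56 ones without overlap at 0 and 24 hpa. The stage effect in TRDKO minus that in WT was -1.82 at 0 hpa (SE 0.70, FDR 0.158), and passed in the fit without a filter. Another INK4 gene, *cdkn2c*, is not a member and belongs to the G1/S list below. It was lower in WT61 than in WT56 at 6 hpa (-1.21, SE 0.35, FDR 0.0393, 3.04 against 7.11 CPM).

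Without replicate 1 of WT56 the stage value in WT tails at 0 hpa was 9.44, which depends on the prior count since the other library held 0 counts. Set against 3 counts in that library, WT61 was at least 8.11-fold higher. The stage call in TRDKO tails at 0 hpa was lost without replicate 2 of TRDKO56 (1.42) and the one in WT tails at 6 hpa without replicate 1 of WT56 (2.29). Over time *cdkn2b* fell at 6 hpa in TRDKO61 (-1.25, SE 0.37, FDR 0.0477), with -0.75 in WT61 (FDR 0.285), -1.23 in TRDKO56 (FDR 0.108) and -0.01 in WT56 (FDR 0.997). From 6 to 24 hpa it rose in TRDKO56 (1.83, SE 0.49, FDR 0.0304), with 0.94 in TRDKO61 (FDR 0.212), 0.42 in WT61 (FDR 0.484) and 1.10 in WT56 (FDR 0.0935). The fall in TRDKO61 was lost with a replicate term and with only the 4 libraries compared. It was also lost without either TRDKO56 library at 0 hpa (-1.25 each), either TRDKO61 library at 0 hpa (-1.48 and -1.03) or replicate 2 of TRDKO61 at 6 hpa (-0.87). The rise in TRDKO56 was lost without any of its 4 libraries (1.51 and 2.33 without those at 6 hpa, 2.16 and 1.44 without those at 24 hpa).

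*cdkn1b* (chromosome 3, 10417718 to 10426492, plus strand) encodes p27, the Cip/Kip inhibitor known from cells at rest. It had the smallest span of condition means, and its 24 libraries ran from 6.17 to 15.7 CPM. It averaged 13.6 ± 2.96 CPM in TRDKO61, 13.7 ± 0.655 in WT61, 13.3 ± 1.03 in TRDKO56 and 10.7 ± 0.119 in WT56 at 0 hpa, and 11.2 ± 1.78, 12.6 ± 1.64, 7.47 ± 1.85 and 8.79 ± 0.938 at 24 hpa in the same order (SD, n = 2). Its only call was a fall in TRDKO56 at 24 against 0 hpa (-0.87, SE 0.24, FDR 0.0227), where the libraries had 8.77 and 6.17 CPM at 24 hpa against 14.02 and 12.6 at 0 hpa. This was lost without either TRDKO56 library at 0 hpa (-0.78 and -0.96) or replicate 2 at 24 hpa (-0.64). A further Cip/Kip-type gene known from frogs, *cdknx* (chromosome 7, 117636453 to 117639399, plus strand), was chosen after its values were seen. It is therefore given without a test. Its 0 hpa libraries had 553 and 299 CPM in WT61 and 370.3 and 504 in WT56. Those at 6 hpa had 248 and 547 CPM in WT61 and 173 and 356 in WT56, and at 24 hpa 237 and 250.3 in WT61 and 73.7 and 81.9 in WT56. The WT groups overlapped at 0 and 6 hpa. In TRDKO tails at 24 hpa it had 102 and 216 CPM at stage 61 and 107 and 68.2 at stage 56, which overlapped.

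Cell-type marker sums also differed between the stages and genotypes. At 0 hpa the muscle sum was 9170 to 9360 CPM in TRDKO61, 12800 to 15700 in WT61, 14800 to 18700 in TRDKO56 and 20200 to 29600 in WT56. The leukocyte sum was 717 to 745 CPM in TRDKO61, 867 to 985 in WT61, 598 to 663 in TRDKO56 and 619 to 687 in WT56. Of 12 leukocyte markers tested, 6 were higher and 1 lower in WT61 than in WT56 at 0 hpa, where 26.9% of all genes passed. The notochord and cartilage sum was 380 to 462 CPM in TRDKO61, 546 to 738 in WT61, 900 to 1120 in TRDKO56 and 1580 to 1690 in WT56. The neural sum was 161 to 184 CPM in TRDKO61, 283 to 292 in WT61, 295 to 299 in TRDKO56 and 347 to 377 in WT56. The fibroblast sum was 9440 to 11200 CPM in TRDKO61 and 11000 to 11800 in WT61. At stage 56 it was 17900 to 19100 CPM in TRDKO56 and 17100 to 21100 in WT56. Of 10 fibroblast markers tested, 3 were higher and 4 lower in WT61 than in WT56. The epidermal sum was 4700 to 5290 CPM in WT61 against 4880 to 5370 in WT56, with 3 of 9 markers higher and 3 lower. At 24 hpa the muscle sum was 5920 to 9080 CPM in WT61 against 6900 to 7660 in WT56, and the leukocyte sum 1160 to 1200 CPM in WT61 against 1130 to 1490 in WT56. The epidermal sum was then 4530 to 5340 CPM in WT61 against 3540 to 3980 in WT56 (4 of 9 markers higher), and the fibroblast sum 7350 to 8920 CPM in WT61 against 6930 to 6940 in WT56 (4 of 10 higher and 2 lower). Of all genes 29% passed in this comparison. The notochord and cartilage sum was 157 to 169 CPM in WT61 against 207 to 241 in WT56. The part of these tissues in the differences was not tested.

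*mdm2* (chromosome 3, 58999803 to 59011771, minus strand) encodes the ubiquitin ligase that marks p53 for breakdown and is itself a p53 target. At 0 hpa it had 61.8 and 55.1 CPM in TRDKO61, 36.75 and 38.5 in WT61, 53.5 and 60.3 in TRDKO56, and 48.1 and 39.6 in WT56. At 6 hpa it had 66.5 and 60.1 CPM in TRDKO61, 40.9 and 45.7 in WT61, 68.8 and 68.6 in TRDKO56, and 62.2 and 68.2 in WT56. At 24 hpa it had 63.6 and 58.8 CPM in TRDKO61, 39.2 and 39.2 in WT61, 68.2 and 85.6 in TRDKO56, and 61.3 and 59.6 in WT56. WT61 had the lowest libraries at each time, the reverse of its place for *cdkn1a*. TRDKO61 was higher than WT61 by a log2 FC of 0.63 at 0 hpa (SE 0.14, FDR 0.0047), 0.55 at 6 hpa (FDR 0.0545) and 0.66 at 24 hpa (SE 0.12, FDR 0.0105). Between stages in WT tails the values were -0.25 (FDR 0.219), -0.59 (SE 0.15, FDR 0.0248) and -0.63 (SE 0.12, FDR 0.0063), so the gene was lower in WT61 at 6 and 24 hpa. In TRDKO tails they were 0.03, -0.12 and -0.29 (FDR 0.902, 0.662 and 0.127). After amputation *mdm2* rose in WT56, by 0.56 at 6 hpa (SE 0.14, FDR 0.0251) and 0.41 at 24 hpa (SE 0.12, FDR 0.0135) against 0 hpa, and in WT61 by 0.20 and 0.03 without passing (FDR 0.381 and 0.874). The difference between these WT stages did not pass (-0.36 and -0.38, FDR 0.507 and 0.193). TRDKO56 gave 0.26 and 0.38 (FDR 0.296 and 0.0684), of which the fit to all 24 libraries called the second. TRDKO61 gave 0.14 and 0.07 (FDR 0.586 and 0.809).

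The *mdm2* call between genotypes at 24 hpa was lost without either WT61 library (0.66 and 0.65), and the one at 6 hpa passed in the fit to all 24 libraries. The stage call in WT tails at 6 hpa was lost without any of its 4 libraries (-0.66 and -0.52 without WT56, -0.53 and -0.66 without WT61). The rise in WT56 at 6 hpa was lost without either WT56 library at 0 hpa (0.72 and 0.44), replicate 2 at 6 hpa (0.49) or either WT61 library at 0 hpa (0.55 each), and at 24 hpa without replicate 2 at 0 hpa (0.34).

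*gadd45a* (chromosome 4, 83501895 to 83506575, minus strand) and *gadd45g* (chromosome 1, 138049183 to 138051097, plus strand) encode stress-induced proteins that act on growth arrest and DNA repair, and *gadd45a* is a p53 target in mammals. At 0 hpa *gadd45a* had 29.0 and 27.9 CPM in TRDKO61, 18.95 and 21.03 in WT61, 18.98 and 18.2 in TRDKO56, and 24.7 and 22.9 in WT56. At 6 hpa it had 54.1 and 34.6 CPM in TRDKO61, 26.7 and 39.2 in WT61, 37.7 and 53.9 in TRDKO56, and 30.5 and 52.1 in WT56. In each group both libraries at 6 hpa lay above both at 0 hpa, and they differed from each other by more than those at 0 hpa did. The rise passed in TRDKO56 (1.29, SE 0.25, FDR 0.00737), and the values were 0.66 in TRDKO61 (FDR 0.0862), 0.72 in WT61 (FDR 0.14) and 0.79 in WT56 (FDR 0.0829). At 24 hpa *gadd45a* had 28.5 and 30.6 CPM in TRDKO56, still above 0 hpa (0.62, SE 0.14, FDR 0.01), and 30.5 and 36.5 in TRDKO61, 23.3 and 27.2 in WT61, and 25.9 and 29.2 in WT56. At 0 hpa the TRDKO61 libraries were the highest. TRDKO61 exceeded TRDKO56 by 0.61 (SE 0.14, FDR 0.00909) and WT61 by 0.50 (SE 0.14, FDR 0.0167), while WT61 over WT56 was -0.27 (FDR 0.198) and TRDKO56 over WT56 was -0.38 (FDR 0.169). The stage effect in TRDKO minus that in WT was 0.88 (SE 0.20, FDR 0.0294).

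*gadd45g* was the most abundant member. At 0 hpa it had 142 and 136 CPM in TRDKO61, 165 and 129 in WT61, 95.9 and 106 in TRDKO56, and 191 and 224.5 in WT56. TRDKO56 was the lowest and WT56 the highest, with no overlap with the other groups. TRDKO56 lay below WT56 by a log2 FC of -1.04 (SE 0.15, FDR 0.00227), and WT61 below WT56 by -0.51 (SE 0.15, FDR 0.0252). TRDKO61 over TRDKO56 was 0.45 (FDR 0.0505) and TRDKO61 over WT61 -0.08 (FDR 0.712). The stage effect in TRDKO minus that in WT was 0.96 (SE 0.21, FDR 0.0247). At 6 hpa the libraries had 197 and 176 CPM in TRDKO61, 152 and 200.1 in WT61, 168.5 and 256 in TRDKO56, and 175 and 271 in WT56. The rise from 0 hpa passed in TRDKO56 (1.06, SE 0.21, FDR 0.00909), and the other groups gave 0.45, 0.26 and 0.11 in TRDKO61, WT61 and WT56 (FDR 0.174, 0.523 and 0.794). At 24 against 0 hpa it fell in WT56 (-0.41, SE 0.14, FDR 0.0284). The summed leukocyte markers were higher at 6 than at 0 hpa as well, with 1720 to 2090 against 717 to 745 CPM in TRDKO61, 1070 to 1690 against 867 to 985 in WT61, 1280 in both libraries against 598 to 663 in TRDKO56 and 845 to 1070 against 619 to 687 in WT56, and their part in the *gadd45a* and *gadd45g* values was not tested.

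With 1 library left out, the 6 hpa rise in TRDKO56 was lost without either library at 0 hpa (1.33 and 1.26 for *gadd45a*, 0.99 and 1.13 for *gadd45g*) or replicate 2 at 6 hpa (1.01 and 0.72). The *gadd45a* call at 24 hpa was lost without either library at 0 hpa (0.66 and 0.58) or replicate 2 at 24 hpa (0.57). Its stage call in TRDKO tails was lost without replicate 2 of TRDKO56 (0.57) and with all 24 libraries in 1 fit. Its genotype call was lost without replicate 1 of TRDKO61 (0.45) or either WT61 library (0.44 and 0.55), with DESeq2 and with all 24 libraries. The stage by genotype call of *gadd45a* was lost in the last 2 fits too, and in 7 of 8 fits with a library left out, with values from 0.81 to 0.92. Only the fit without replicate 2 of TRDKO61 kept it. That of *gadd45g* was lost with all 24 libraries, and without either TRDKO56 library (0.88 and 1.04), either WT56 library (1.07 and 0.83) or replicate 2 of WT61 (0.75). The stage call of *gadd45g* in WT tails was lost with all 24 libraries and without replicate 2 of WT56 (-0.37) or of WT61 (-0.32). Its fall in WT56 by 24 hpa was lost with all 24 libraries and without replicate 2 at 0 hpa (-0.26) or either library at 24 hpa (-0.35 and -0.40).

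*rb1* (chromosome 2, 134929316 to 135024614, plus strand) encodes the retinoblastoma protein, which binds E2F factors until CDKs phosphorylate it. At 0 hpa it had 11.2 and 13.9 CPM in TRDKO61, 14.2 and 15.8 in WT61, 8.69 and 13.6 in TRDKO56, and 12.8 and 8.35 in WT56. At 6 hpa it had 12.7 and 15.5 CPM in TRDKO61, 18.9 and 25.6 in WT61, 8.38 and 9.88 in TRDKO56, and 8.16 and 7.74 in WT56. At 24 hpa it had 24.2 and 26.8 CPM in TRDKO61, 26.1 and 20.6 in WT61, 42.0 and 61.2 in TRDKO56, and 31.9 and 37.7 in WT56. The groups lay close together at 0 hpa, WT61 was highest at 6 hpa, and at 24 hpa the order turned round, with all 4 stage 56 libraries above all 4 stage 61 libraries. From 6 to 24 hpa *rb1* rose by a log2 FC of 2.47 in TRDKO56 (SE 0.23, FDR 0.0016) and 2.11 in WT56 (SE 0.21, FDR 0.00102), with 0.85 in TRDKO61 (SE 0.22, FDR 0.062) and 0.08 in WT61 (FDR 0.857). The value in TRDKO61 passed under 5 of 7 other fits. Against 0 hpa it was higher at 24 hpa in all 4 groups, by 1.03 in TRDKO61 (SE 0.24, FDR 0.0303), 0.62 in WT61 (SE 0.18, FDR 0.0273), 2.14 in TRDKO56 (SE 0.25, FDR 0.000654) and 1.6 in WT56 (SE 0.20, FDR 4.92e-05).

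The *rb1* change from 6 to 24 hpa was smaller at stage 61 than at stage 56 by -1.62 in TRDKO tails (SE 0.31, FDR 0.0533) and -2.03 in WT tails (SE 0.28, FDR 0.0542), neither of which passed. DESeq2, the fit to all 24 libraries and the fit without a filter on low counts called both. A replicate term also called the first. Between stages, *rb1* was higher in WT61 than in WT56 at 6 hpa (1.48, SE 0.23, FDR 0.0045) and lower in TRDKO61 than in TRDKO56 at 24 hpa (-0.98, SE 0.19, FDR 0.0131), with -0.57 in WT tails at 24 hpa (FDR 0.0635). The lower level in TRDKO61 at 24 hpa was lost without replicate 2 of TRDKO56 (-0.67). The 24 hpa rise in TRDKO61 was lost without any of its 4 libraries (0.86 and 1.19 without those at 0 hpa, 1.10 and 0.97 without those at 24 hpa). In WT61 it was lost with all 24 libraries in 1 fit, and without either library at 0 hpa (0.55 and 0.71) or replicate 1 at 24 hpa (0.44). In the stage 56 groups the rises to 24 hpa, against 6 and against 0 hpa, held with each library left out. The muscle sum was 5300 to 6060 CPM at 24 hpa against 19700 to 20600 at 6 hpa in TRDKO56, and 6900 to 7660 against 25500 to 28600 in WT56. The neural sum was 148 to 160 against 261 to 347 CPM in TRDKO56 and 173 to 189 against 359 to 399 in WT56, and the part of either tissue in the *rb1* values was not tested.

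Over time, 2 of 8 members passed at 6 against 0 hpa in TRDKO61 (14.9% of all genes), 1 in WT61 (7.16%), 3 in TRDKO56 (15.4%) and 2 in WT56 (18.9%). From 6 to 24 hpa 2 of 8 passed in TRDKO56 (22.8%) and 2 in WT56 (26.1%). None of the 8 passed edgeR's test in TRDKO61 (4.01%), where 4 had an unadjusted p under 0.05 and DESeq2 called 1, *rb1*, and none passed in WT61 (1.82%), where 2 had an unadjusted p under 0.05 and DESeq2 called 0. An unadjusted p under 0.05 was found for 3738 of 16277 genes in TRDKO61 and 3113 of 16049 in WT61. At 24 against 0 hpa, 1 of 8 passed in TRDKO61 (9.08%), 3 in WT61 (19.1%), 3 in TRDKO56 (34.2%) and 4 in WT56 (45.6%). In each of these 12 comparisons the count was within 2 of what the share of all genes would give for 8 genes. With so few genes this limit is coarse, and it does not show that the members passed as often as all genes. The change in TRDKO61 was also set against that in WT61. At 6 against 0 and at 24 against 6 hpa 0% of all genes passed and at 24 against 0 hpa 0.0363% did, and 0 of 8 members passed edgeR's test in any of the 3, with 1 of the 24 values at an unadjusted p under 0.05 and 0 by DESeq2. In the same order, 969 of 16307, 953 of 16320 and 1584 of 16509 genes had an unadjusted p under 0.05. Between the stages of a genotype 0 of 48 values passed, with 8 at an unadjusted p under 0.05 and 2, both of *rb1*, by DESeq2. Of all genes, 0.0312%, 1% and 1.72% passed between the stages of TRDKO at 6 against 0, 24 against 6 and 24 against 0 hpa, and 0.0251%, 0.081% and 5.75% between those of WT. In the same order, the genes at an unadjusted p under 0.05 were 1325 of 16042, 3024 of 16277 and 2958 of 16357 in TRDKO. In WT they were 1827 of 15909, 3025 of 16049 and 3747 of 15992.

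**Figure D3:**
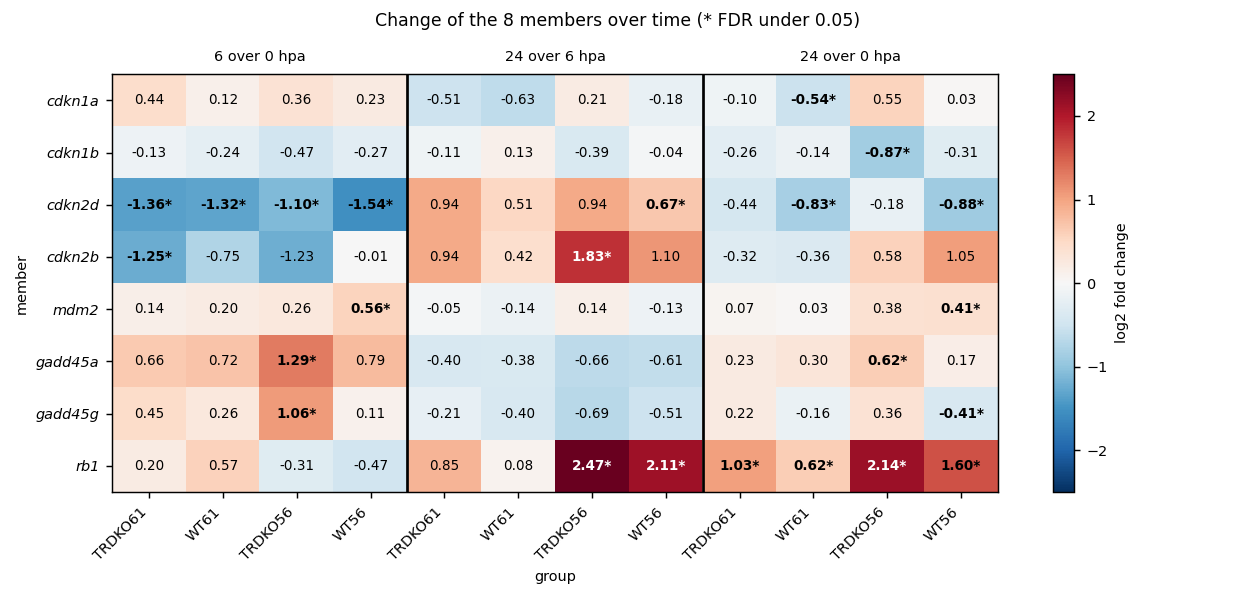
Log2 fold change of the 8 genes in TRDKO61, WT61, TRDKO56 and WT56 for 6 over 0, 24 over 6 and 24 over 0 hpa (colour scale and printed values, an asterisk where the FDR was under 0.05). *cdkn2d* is negative and passed in all 4 groups at 6 over 0 hpa, from -1.54 to -1.10, and *rb1* reached 2.47 in TRDKO56 and 2.11 in WT56 at 24 over 6 hpa.

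The other genes of the p53 pathway were followed in a list that leaves the members out, with 53 genes in the table of 59 listed and 50 or 51 tested. Between stages at 0 hpa 4 rose and 3 fell of 50 in TRDKO tails, where 21.9% of all genes passed, and 5 rose and 10 fell of 50 in WT tails, where 26.9% did. *cdk1*, the mitotic kinase, fell by a log2 FC of -3.05 in TRDKO61 (6.74 against 58.3 CPM in TRDKO56) and -2.78 in WT61 (8.67 against 59.5 CPM in WT56). *gtse1*, a p53 regulator of G2 and S phase, fell by -2.52 in TRDKO61 and -2.17 in WT61. Between genotypes at stage 61, 4 rose and 7 fell at 0 hpa (29.9% of all genes passed), of which *thbs1*, a matrix glycoprotein, fell by -1.17 (1207 CPM in TRDKO61 against 2714 in WT61). At stage 56, 2 rose and 3 fell at 0 hpa (5.93%), and *thbs1* was lower in TRDKO56 by -1.5 (774 CPM against 2186 in WT56). *aen*, an exonuclease of p53-driven cell death, was higher in TRDKO61 than in WT61 by 1.30 at 6 hpa (39.58 against 16 CPM) and 1.22 at 24 hpa (27.9 against 12.2 CPM), and *sesn1*, a stress-induced sestrin, was lower by -1.25 at 6 hpa. The medians of the list lay between -0.16 and 0.09 in the stage and genotype comparisons, against -0.01 to 0.02 over all genes.

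After amputation *fas*, a death receptor, and *plk3*, a stress kinase, of the p53 list rose by 6 hpa in TRDKO61 (1.47 and 1.51), TRDKO56 (1.17 and 1.55) and WT56 (1.15 and 1.04). Of 50 genes, 5 rose and 3 fell in TRDKO61 (14.9% of all genes passed), 0 rose and 2 fell in WT61 (7.16%), 3 rose and 3 fell in TRDKO56 (15.4%) and 2 rose and 7 fell in WT56 (18.9%), so the list passed about as often as all genes did. From 6 to 24 hpa 2 rose in TRDKO61 (4.01%), 3 rose in WT61 (1.82%), 11 rose and 6 fell in TRDKO56 (22.8%), and 8 rose and 6 fell in WT56 (26.1%). The checkpoint kinase gene *chek2* rose in all 4 groups, by 1.10 in TRDKO61, 1.15 in WT61, 2.22 in TRDKO56 and 2.15 in WT56. *cdk1* rose by 2.55 in TRDKO61 and 1.91 in WT61, and *chek1*, the other checkpoint kinase gene, by 1.74 in TRDKO56 and 1.83 in WT56. The mean of *cdk1* was also higher at 24 than at 6 hpa in TRDKO56 (90.9 against 31.2 CPM) and in WT56 (66.9 against 33.3 CPM).

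Genes of the G1/S transition and the RB pathway were followed in a list of 34 tested genes, again without the members. The list is not one of inhibitor targets, since it also holds *cdkn2c*, itself an INK4 inhibitor. At 0 hpa 15 of 34 were lower at stage 61 in TRDKO tails and 0 higher (21.9% of all genes passed in either direction), and 14 were lower and 1 higher in WT tails (26.9%), with list medians of -0.46 and -0.59 against 0.02 and -0.01 over all genes. *cdk2*, the kinase of S-phase entry, had 6.83 CPM in TRDKO61 against 22.7 in TRDKO56 (-1.73) and 6.38 in WT61 against 21.7 in WT56 (-1.76). *pcna*, the clamp of the replication fork, had 50.5 CPM in TRDKO61 against 132 in TRDKO56 (-1.39) and 42.3 in WT61 against 107 in WT56 (-1.35). Both genotypes thus had fewer transcripts of these genes at stage 61. Of the inhibitors among the members, *cdkn2b* and *cdkn2d* were higher at stage 61 in both genotypes at 0 hpa. The stage test of *cdkn1b* was passed in neither, with 0.01 in TRDKO (FDR 0.971) and 0.34 in WT tails (FDR 0.245). The stage test of *cdkn1a* was passed in WT tails and missed in TRDKO tails, where DESeq2 and the edgeR fit without a filter called it. The difference between its stage effects did not pass at 0 hpa either, and DESeq2 and the fit without a filter called it too. The part of the inhibitors in the list values was not tested. Between genotypes 5 of 34 were higher and 1 lower in TRDKO61 at 0 hpa, where 29.9% of all genes passed. At 6 hpa 1 was higher (9.89%) and at 24 hpa 4 were (15.5%), and each share of the list was below that of all genes. By 6 hpa 2 rose and 1 fell in TRDKO61 (14.9% of all genes passed), 2 rose and 8 fell in TRDKO56 (15.4%), and 1 rose and 4 fell in WT56 (18.9%). In WT61 0 of 34 passed edgeR's test (7.16%), and the median of the list was -0.06. *myc*, a growth regulator, was the only gene of the list to rise in TRDKO56 by more than 1 (1.52), and *pcna* fell there by -1.19.

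From 6 to 24 hpa, where *rb1* rose in the stage 56 groups, the list was counted again. Of 34 genes 8 rose in TRDKO61 (4.01% of all genes passed in either direction) and 7 in WT61 (1.82%) with 0 falling, 20 rose and 2 fell in TRDKO56 (22.8%), and 17 rose and 1 fell in WT56 (26.1%), with list medians of 0.25, 0.29, 0.67 and 0.80. *cdk2* rose by 2.06 in TRDKO61 (21.6 against 5.16 CPM), 1.66 in WT61 (15.4 against 4.87), 2.6 in TRDKO56 (57.6 against 9.33) and 2.94 in WT56 (69.3 against 8.90). At most 4 genes per list and comparison are named, so a group left out is not thereby one without a change. *ccna2*, the cyclin of S phase, rose by 3.13 in TRDKO61 and 1.99 in WT61. Its mean was also higher at 24 than at 6 hpa in TRDKO56 (48.9 against 11.25 CPM). *ccne2*, the cyclin of the G1/S step, rose by 2.7 in TRDKO56 and 2.48 in WT56, and *pcna* by 1.21 in WT61, 1.84 in TRDKO56 and 2.25 in WT56. At 24 hpa 16 of 34 were lower in TRDKO61 than in TRDKO56 with 0 higher (17.4% of all genes passed), and 23 were lower and 2 higher in WT61 than in WT56 (29%).

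**Figure D4:**
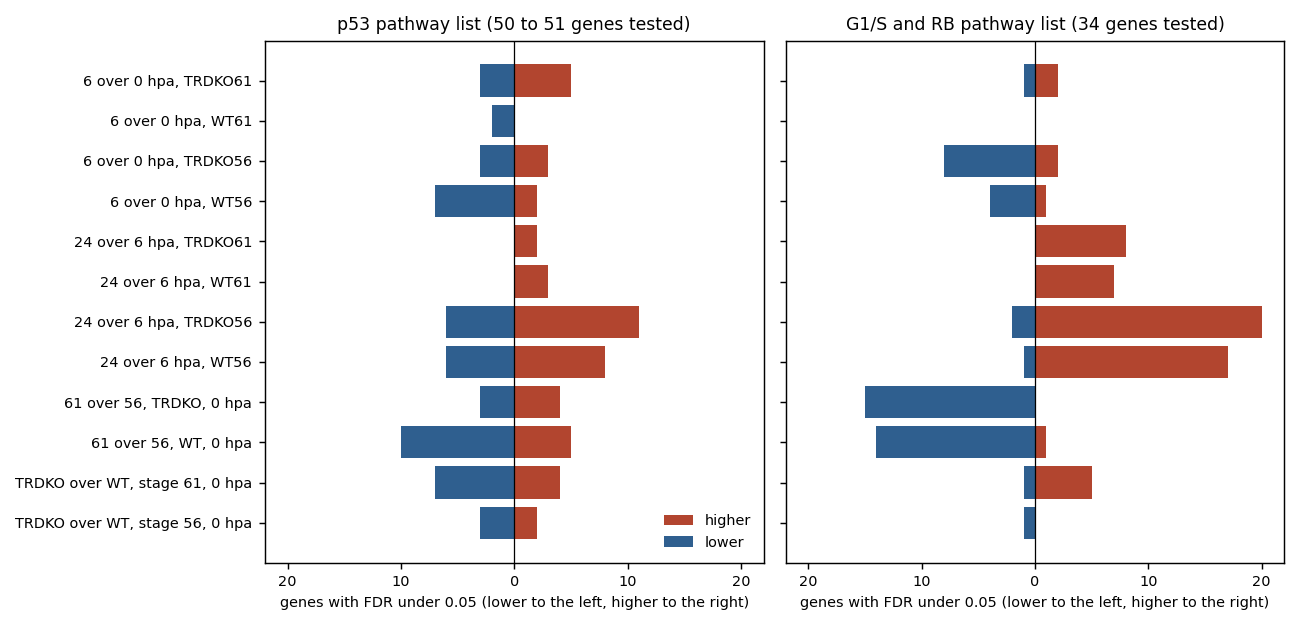
Number of genes of the p53 pathway list and of the G1/S and RB pathway list, members left out, that were higher (right) or lower (left) at an FDR under 0.05 in 12 comparisons. The bars of the second list point to the right from 6 to 24 hpa, up to 20 genes in TRDKO56, and to the left between stages at 0 hpa, with 15 genes in TRDKO and 14 in WT tails.

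The members did not share one pattern. Over the 12 condition means of log2 CPM, which share libraries and depth, *cdkn1a* correlated with *cdkn2b* (r = 0.68) and *cdkn2d* (0.67), and *cdkn2b* with *cdkn2d* (0.63). *cdkn1b* correlated with *cdkn2d* (0.62), *cdkn2b* (0.48) and *cdkn1a* (0.42), and *gadd45a* with *gadd45g* (0.70). *cdkn2b* ran against *gadd45g* (-0.6). *gadd45a* ran against *cdkn2d* (-0.67), and *mdm2* against *cdkn2d* (-0.84), *cdkn1b* (-0.63) and *cdkn1a* (-0.57), and *rb1* had no r above 0.45 with any member. Among 12539 other genes with at least 5 CPM, those most like *cdkn1a* were *arl13b* (r = 0.97) and *foxo1* (0.97), and those most like *cdkn2d* were *pcsk5* (0.97) and *slc36a1* (0.97). Nearest to *cdkn2b* were *ampd2* (0.97) and *ppp1r3c.2* (0.95), nearest to *cdkn1b* *LOC101734394* (0.94) and *rnf167* (0.92), and nearest to *mdm2* *gtf2h2* (0.97) and *vbp1* (0.97). For *gadd45a* they were *kri1* (0.96) and *met* (0.95), for *gadd45g* *azin2* (0.94) and *dusp5* (0.92), and for *rb1* *septin2* (0.97) and *prep* (0.97).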

How the data were processed

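RNA-seq libraries were made from 24 tail samples, 2 for each of 12 conditions, with a stranded kit. Per the submitters' processing notes, adapters were removed with cutadapt (3.2) and reads were mapped with STAR (2.7.7a) and counted with featureCounts of Subread (2.0.1). The study's methods name other versions of STAR and Subread. Whether duplicates were counted and which strand option was used is not given in the sources used here. The deposited values are the authors' counts per gene, as whole numbers without normalization, and 2 rows that were broken over lines were rejoined. Of 26481 symbols with a single RefSeq entry, 99.3% had the same start in UCB_Xtro_10.0. Library totals ran from 3956148 to 20731438 counts, and with 2 libraries per condition the biological coefficient of variation between libraries was 11.8% to 20.4%. The libraries of a condition differed by more than counting noise (chi-square per gene 8.8 to 38.5).

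Genes were kept with filterByExpr, scaled with TMM factors and tested with edgeR 4.0.16 (R 4.3.3, limma 3.58.1, statmod 1.5.0) by robust glmQLFit in fits to 8 libraries, with 1 coefficient per condition. Time comparisons used both stages of 1 genotype at a pair of times, and stage and genotype comparisons used the 4 groups at 1 time. Benjamini-Hochberg adjustment ran over the 15909 to 16509 genes of each of 36 comparisons. Standard errors were taken as the absolute log2 FC over the root of the F statistic. The scripts were tested on simulated data.

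The members and lists were chosen with earlier results of these data known. Named are all members, up to 4 genes per list and comparison with the smallest p among those with an FDR under 0.05, an absolute log2 FC over 1 and a mean of 5 CPM, the 2 genes most like each member, and *thra* and *thrb*. Not every gene that the rule allows is named. The lists came from general pathway knowledge. Alternatives were RLE and upper-quartile factors, no filter, DESeq2 (1.42.0), all 24 libraries in 1 fit, only the 4 libraries compared, a replicate term, a limit on the fold change and each library left out in turn. Sequences were not used.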

Additional observations from a re-analysis of the deposited data

Results flagged for a closer look

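For 4 values the stage effect differed between the genotypes in a test of the difference itself. At 0 hpa the stage 61 over 56 effect in TRDKO minus that in WT was 0.96 for *gadd45g* (FDR 0.0247) and 0.88 for *gadd45a* (FDR 0.0294), on the log2 scale. For both genes the estimated effect was positive in TRDKO tails (0.45 and 0.61, FDR 0.0505 and 0.00909) and negative in WT tails (-0.51 and -0.27, FDR 0.0252 and 0.198). Each gene thus passed the stage test in a single genotype. At 24 hpa the difference was -1.25 for *cdkn1a* (FDR 0.0447) and -1.45 for *cdkn2d* (FDR 0.0387), with stage effects of -0.02 and 0.45 in TRDKO tails and 1.23 and 1.90 in WT tails. Of all genes 5.55% passed at 0 hpa and 4.34% at 24 hpa. All 4 calls were lost in some of the fits with 1 library left out. That of *gadd45a* was also lost with DESeq2, those of both *gadd45* genes with all 24 libraries, and that of *cdkn2d* with a replicate term. Of the 24 such tests, 12 had an unadjusted p under 0.05. So did 3378 of 15925 genes at 0 hpa, 2125 of 15993 at 6 hpa and 3598 of 16271 at 24 hpa.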

How the results depend on the processing

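Of 54 member values that passed, 39 passed under every other fit and 18 with each library left out in turn, and no value changed direction. Of the values that did not pass, 24 passed under at least 1 other fit. The count of calls at an absolute log2 FC over 1 as well was 3 of 11 at 24 against 0 hpa, 11 of 17 between stages, 5 of 10 between genotypes and 2 of 4 for stage by genotype. Without a filter on low counts the stage by genotype count was 7. With all 24 libraries in 1 fit the count from 6 to 24 hpa was 7, against 4. For the change over time at stage 61 minus 56, where 0 passed, it was 1 with RLE factors, 4 without a filter, 1 with the replicate block, 2 with DESeq2 and 2 with all 24 libraries. The cause was not tested. With 1 library left out the counts ran from 4 to 10 at 6 against 0 hpa (8 with all), 3 to 6 at 24 against 6, 8 to 11 at 24 against 0, 15 to 19 between stages, 7 to 10 between genotypes, 2 to 4 for stage by genotype and 0 to 1 for stage 61 minus 56. Where a condition keeps 1 library, it is assumed to vary like the others. Upper-quartile factors moved the median of all genes to -0.117 in TRDKO61 and -0.116 in TRDKO56 at 6 against 0 hpa. Of the member values called under at least 1 fit, none changed direction with it, and the others were not checked.

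The replicate numbers carried no strong effect shared between conditions: the differences between replicates of 66 pairs of conditions correlated from -0.25 to 0.21 with a median of -0.02. This cannot show how the tadpoles were divided between the libraries. With the replicate block the counts were 7, 4 and 11 at 6 against 0, 24 against 6 and 24 against 0 hpa, 18 between stages, 11 between genotypes, 4 for stage by genotype, 1 for stage 61 minus 56 and 0 for TRDKO61 minus WT61. Depth limits *cdkn2b* most, with 0 to 166 counts per library, and 2 libraries per condition limit every value.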
